A study of Mus musculus with 6 samples.

Results

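The nuclear factor I (NFI) family was described in neural stem cells that carried either a short hairpin RNA (shRNA) against Sox4 or a scrambled one. All 4 family genes, Nfia, Nfib, Nfic and Nfix, were taken by symbol from the authors' comparison of gene expression, in which each has 1 row among 12316. The cells were CD-1 mouse neural stem cells of embryonic day 14.5, bought from R&D Systems, kept as a monolayer on laminin with both EGF and bFGF, and held under puromycin (0.5 µg/mL) once transduced with lentivirus. The 6 libraries of poly(A) RNA are 2 with Sox4 shRNA 1, 2 with Sox4 shRNA 2 and 2 with the scrambled shRNA, the libraries of each hairpin being numbered by passage. The submitters give these as biological duplicates from different passages of the cells, so p-values measure the spread between passages, and also that between hairpins if the authors combined the Sox4 hairpins.

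The deposited table holds 1 level per condition and no value per library, so depth and replicate spread are unknown and values carry neither an SD nor an n. Its header names neither condition, and it does not say whether the Sox4 hairpins were combined. Each fold is therefore given as second over first condition, and which condition carried a Sox4 shRNA is not stated here. Levels are those that Cuffdiff writes as FPKM, a measure per transcript length and per mapped fragments, although the header does not name the unit and FPKM is here taken from the tool. The word called is used for genes that the authors flagged as significant, which in their deposited table corresponds to q-values of up to 0.0494. Among called genes, "rose" and "fell" mean higher and lower in the second condition. Sox4, the targeted gene, had a level of 83.9 FPKM in the second and 126.8 FPKM in the first condition in the authors' deposited table, with q = 0.0543, and was not called.

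NFI proteins are transcription factors that bind DNA as dimers, at a site made of the core TTGGC and its reverse complement GCCAA. In the embryonic brain and spinal cord they act when neural stem cells turn from making neurons to making astrocytes. Nfia promotes the start of gliogenesis and is induced by Notch signalling, and its product acts together with Sox9. Nfib and Nfix drive maturation of radial glia in the forebrain and hippocampus. Nfic is known best for its part in tooth root formation, and its role in neural stem cells is less well defined.

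The genes are separate loci with closely related coding sequence. On GRCm38 in the GENCODE M21 annotation, Nfia lies on the plus strand at chr4:97772734-98118874 and Nfib on the minus strand of the same chromosome at chr4:82290173-82705750. Nfic lies on the minus strand at chr10:81396186-81455635 and Nfix on the minus strand at chr8:84699876-84800344. The coding stretch of 75 bases that the family shares most closely stands near the start of each coding sequence, in the part that encodes the DNA-binding domain. It is shown because it says how far reads of the 4 genes can be told apart. Capitals mark bases that differ from Nfia.
Nfia: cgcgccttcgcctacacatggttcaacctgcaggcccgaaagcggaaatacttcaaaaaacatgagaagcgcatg
Nfib: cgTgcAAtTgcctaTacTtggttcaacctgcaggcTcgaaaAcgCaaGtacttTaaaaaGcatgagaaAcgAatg
Nfic: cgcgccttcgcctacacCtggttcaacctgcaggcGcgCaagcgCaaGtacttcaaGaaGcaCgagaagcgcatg
Nfix: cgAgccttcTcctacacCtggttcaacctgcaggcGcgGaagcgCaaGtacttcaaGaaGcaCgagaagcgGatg

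Even in this stretch the genes differed from Nfia at 14 bases for Nfib, 8 for Nfic and 11 for Nfix. Over all annotated transcripts, the longest run of identical bases was 32, between Nfic and Nfix, and 25 between Nfia and Nfib. No stretch of 40 bases occurred in more than 1 of the 4 genes, with 0 shared among 6694 such stretches of Nfic and 0 among 15061 of Nfib. Exons of Nfia overlap those of E130114P18Rik on the other strand, exons of Nfic overlap Gm16104 and exons of Nfix overlap Lyl1 and G430095P16Rik, also on the other strand. Whether strand was used in counting is not given in the sources used here, and without it reads of such pairs cannot be told apart. E130114P18Rik had 14.0 FPKM in the second and 16.7 FPKM in the first condition in the authors' deposited table, with q = 0.954. The other 3 overlapping genes have no row that could be analysed here.

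None of the NFI genes was called as different between the conditions. By the Cuffdiff q of the authors' deposited table, 0 of 4 rose and 0 of 4 fell, against 4.99% of all rows called, 3.17% as higher and 1.83% as lower. At an unadjusted p under 0.05 the count was 1 of 4, against 17.5% of all rows. The median log2 fold of the 4 genes was 0.16, against 0.0033 over all rows, and 3 of the 4 folds were positive, against 50.5% of all rows.

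Nfix, which restrains proliferation of stem cells in the forebrain, had the highest level of the family in each condition. In the authors' deposited table it stood at 55.7 FPKM in the second and 53.2 FPKM in the first condition, with a log2 fold of 0.07 and q = 0.915. Nfib was next, at 54.5 FPKM in the second and 45.5 FPKM in the first condition of the authors' deposited table, where its log2 fold was 0.26 and its q = 0.503. The levels of Nfix and Nfib were thus closer to each other in the second condition, where their ratio was 1.02, than in the first, where it was 1.17.

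Nfia, the member tied most closely to the start of astrocyte formation, had the only negative fold in the family. It stood at 38.5 FPKM in the second and 40.8 FPKM in the first condition in the authors' deposited table, where its log2 fold was -0.08 and its q = 0.890. Nfic had the lowest level and the greatest fold of the family. It stood at 16.5 FPKM in the second and 11.8 FPKM in the first condition in the authors' deposited table, where its log2 fold was 0.48. Its unadjusted p in the authors' deposited table was 0.0113 and its q was 0.136, so it was the member at an unadjusted p under 0.05 and still was not called. Of all rows, 9.31% had a smaller p than Nfic.

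**Figure D1:**
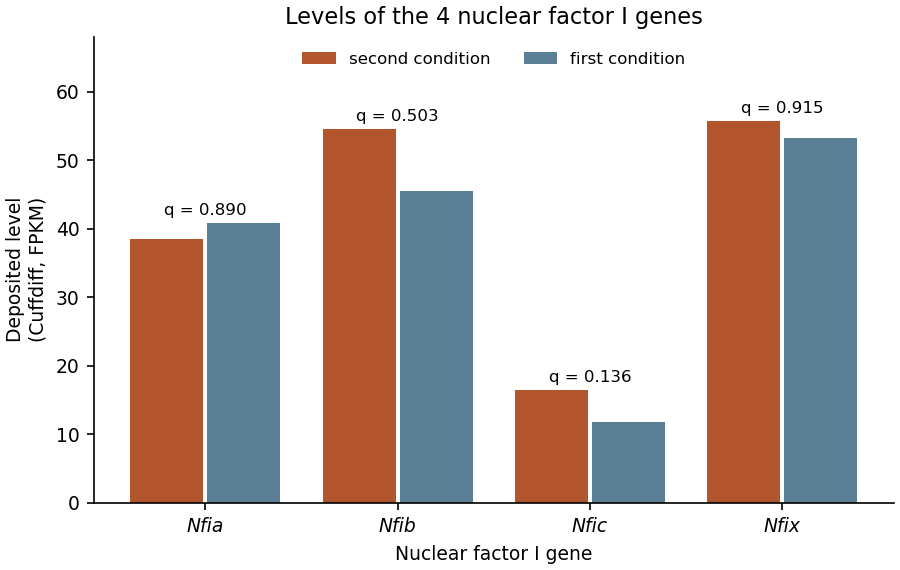
Deposited level (FPKM, linear axis from 0) of each NFI gene in the second condition (left bar) and the first condition (right bar), with the authors' q above each pair. The order Nfix, Nfib, Nfia, Nfic holds in both conditions, and the q-values lie between 0.136 and 0.915. The table holds no error for a level, so no error bars are drawn.

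The order of levels, Nfix over Nfib over Nfia over Nfic, was the same in both conditions. Without values per library the spread of neighbours in this order is unknown, so whether neighbours differ could not be tested. In the second condition 86.3% of all rows had a lower level than Nfix and 57.8% a lower level than Nfic in the authors' deposited table. In the first condition these shares were 85.4% for Nfix and 48.4% for Nfic, so Nfic lay closer to the median row than the other members did. The sum of the 4 levels was 165.2 FPKM in the second and 151.3 FPKM in the first condition, a ratio of 1.09. Nfia made up 23.3% of that sum in the second and 27.0% in the first condition, and Nfic 9.96% in the second and 7.80% in the first.

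The smallest change that was called gives a size below which no fold was called, and it is not a limit above which all were. Sox4, with a log2 fold of -0.60 and q = 0.0543 in the authors' deposited table, was not called. Over all rows that the authors called in their deposited table, the smallest absolute log2 fold was 0.55. Among 1340 rows within 1.2-fold of the mean level of Nfic, 56 were called, the smallest absolute log2 fold among them being 0.56. Among 871 rows as near to the level of Nfia, 30 were called, with a smallest absolute log2 fold of 0.57. Near Nfib 37 of 720 rows were called and near Nfix 36 of 676, with a smallest absolute log2 fold of 0.58 and 0.56. The fold of Nfic, 0.48, lay below these values, so a change of that size was not called for any row near its level. The folds of the 4 genes are therefore differences that this comparison could not tell from 0, and this does not show that the levels were equal.

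**Figure D2:**
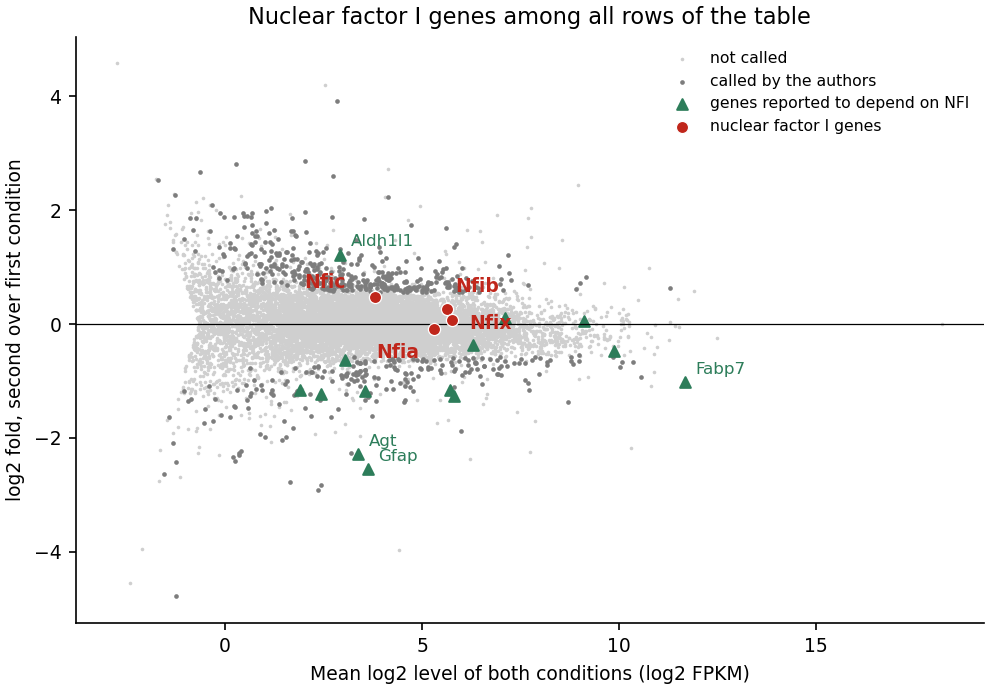
Each point is 1 row of the table, with its mean log2 level of both conditions (log2 FPKM) on the horizontal axis and its log2 fold, second over first condition, on the vertical axis. The 4 NFI genes (red) lie between -0.08 and 0.48, inside the band of rows that were not called (light grey), while 8 of 14 glial genes reported to depend on NFI (green triangles) lie lower, from -2.55 to -1.02.

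The longest annotated transcripts of the NFI genes are long, and in this table folds moved with the length of the longest transcript. The longest coding transcript measures 9526 nt for Nfia, 9116 nt for Nfib, 6237 nt for Nfic and 5476 nt for Nfix. The median over coding transcripts is 9239 nt for Nfia, 3294 nt for Nfib, 2409 nt for Nfic and 1728 nt for Nfix. Which transcripts the cells expressed is not known here. When rows were ranked by length into 10 groups, Nfia and Nfib fell in group 10, the longest, and Nfic and Nfix in group 9. In group 10, 13.2% of rows were called as higher and 1.32% as lower in the second condition, and the median log2 fold was 0.23. In group 9, 4.53% were called as higher and 1.48% as lower, with a median of 0.12, whereas the median of group 1, the shortest, was -0.22. These shares depend on which transcript stands for a gene. By the median length over transcripts, the share called as higher was 11.4% in the group of Nfia, 3.12% in that of Nfib, 1.97% in that of Nfic and 1.81% in that of Nfix. The part of length in the members' folds was not tested.

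Set against rows of like length, the members took other places than against all rows. The fold of Nfia lay below the median of its group, at a log2 difference of -0.32, and 17.6% of the rows in that group had a lower fold. Nfib lay at the middle of the same group, at a log2 difference of 0.03, with 53.4% of rows lower, but at 0.09 with 5 length groups and at 0.22 with groups by median transcript length. Nfic remained above its group, at a log2 difference of 0.36, with 87.1% of rows lower. Nfix changed sign, to a log2 difference of -0.050, with 41.6% of rows lower, whereas by median transcript length it stayed positive, at 0.12. By the longest transcript a positive fold was the more frequent one, at 75.2% of rows in group 10 and 67.0% in group 9. The 3 positive folds of 4 are close to these shares. By median transcript length the groups of Nfic and Nfix had negative medians. Their log2 differences there, 0.51 and 0.12, exceed their folds of 0.48 and 0.07. The share of positive folds in those groups was not counted.

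**Figure D3:**
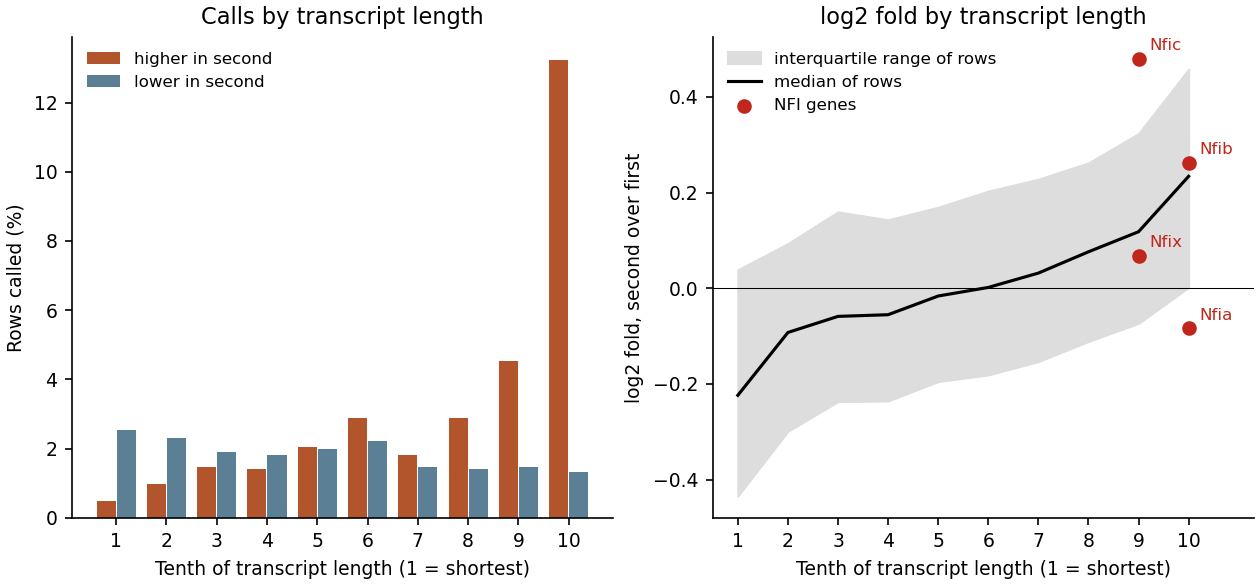
Left, the share of rows called as higher (left bar) or lower (right bar) in the second condition, in percent, for each of 10 groups of transcript length. Right, the median log2 fold (line) and interquartile range (grey) of each length group with the NFI genes as points: Nfib and Nfix lie inside the range of their groups, Nfic above it at 0.48 and Nfia below it at -0.08.

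Many astroglial genes that are reported to need NFI were lower in the second condition. Of 14 such genes, chosen with earlier results of these data known, 8 fell, 1 rose and 5 were not called, against 1.83% of all rows called as lower. Their median log2 fold was -1.09, against 0.0033 over all rows. With the median of each gene's length group taken off it was -0.97, and 0 of the 14 folds changed sign. All 7 general astrocyte markers used here, Gfap and Aqp4 among them, are in this list, as are Slc1a3 and Fabp7 of the radial glia markers, so the list is not specific to NFI.

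Targets that NFIA and SOX9 are reported to share in the embryonic spinal cord were called in part. Mmd2, a membrane protein gene, fell to 36.3 FPKM in the second condition, against 87.5 FPKM in the first, a log2 fold of -1.27 with q = 0.00304 by the authors' deposited table. Apcdd1, which encodes a membrane inhibitor of Wnt signalling, fell to 2.50 FPKM in the second condition, against 5.56 FPKM in the first, also with q = 0.00304 in the authors' deposited table. That is the lowest q of any row, and many called rows share it. Zcchc24, a zinc finger gene of the same set, stood at 142.0 FPKM in the second and 132.0 FPKM in the first condition of the authors' deposited table, with q = 0.851. Hence 2 of these 3 genes were called and 1 was not, and the difference between the genes was not tested.

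Of the glutamate transporter genes on the list, 1 was called. Slc1a2, the transporter of mature astrocytes, fell to 34.9 FPKM in the second condition, against 77.8 FPKM in the first, in the authors' deposited table. Slc1a3, the transporter of radial glia and young astrocytes, stood at 565 FPKM in the second and 544 FPKM in the first condition of the authors' deposited table, with q = 0.948. Sparcl1, a secreted matrix protein of astrocytes, fell 2.25-fold in the authors' deposited table, with q = 0.00304.

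Gfap, the astrocyte filament gene whose activation is the usual readout of NFIA, fell to 5.08 FPKM in the second condition, against 29.7 FPKM in the first, in the authors' deposited table. Fabp7, a lipid carrier of radial glia whose promoter is a known NFI target in glioma cells, fell to 2286 FPKM in the second condition, against 4620 FPKM in the first, in the authors' deposited table. The water channel gene Aqp4 and Agt, the angiotensin precursor gene, were 2.35-fold and 4.87-fold lower in the second condition of the authors' deposited table, and both fell. S100b, Aldoc and the gap junction gene Gja1 had negative folds but were not called, with q-values of 0.139, 0.175 and 0.294 by the authors' deposited table. Aldh1l1, a folate enzyme used as an astrocyte marker, was the gene that rose, with 11.6 FPKM in the second and 4.98 FPKM in the first condition of the authors' deposited table.

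**Figure D4:**
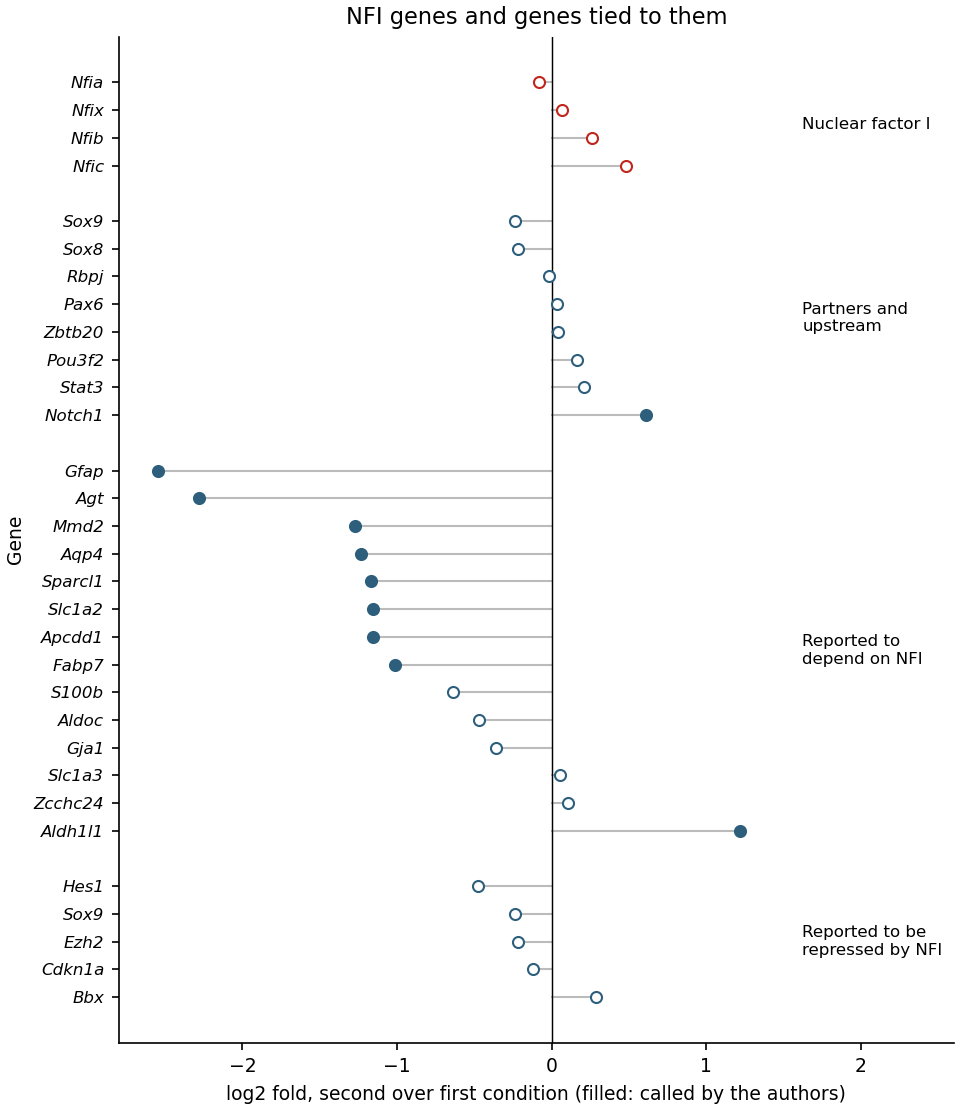
Log2 fold, second over first condition, of the NFI genes (red) and of 3 sets of genes tied to them (blue), with filled points for genes the authors called. All 4 NFI points are open, 8 of the 14 genes reported to depend on NFI are filled and negative, and Aldh1l1 and Notch1 are filled and positive.

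The 250 bases before the RefSeq transcription start were searched for the NFI core TTGGC, on both strands, so that GCCAA also counts. Of the 14 genes 11 have such a window in the RefSeq table on GRCm38.p6. Aqp4, Apcdd1 and Sparcl1, which all fell, have none and were not searched. The core was in at least 1 window of 7 of the 11, against 41.5% of all 32851 windows. As Aldoc has more than 1 window, this sets a count by gene against a share by window. Among the 7 are S100b, Aldoc and Zcchc24, which were not called. The full palindrome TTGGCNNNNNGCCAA was in 0 of their windows and in 0.0365% of all windows. A longer match has an incomplete second arm, as TTGGCNNNNNGCC or its reverse complement GGCNNNNNGCCAA. It was in 1 of the 11 genes, Fabp7, and in 1.22% of all windows. Windows of Fabp7, at chr10:57784673-57784922 on the plus strand, and of Mmd2, at chr5:142608753-142609002 on the minus strand, are shown as genes that fell and hold the core, which is in capitals. A match describes these letters and shows no binding.
Fabp7: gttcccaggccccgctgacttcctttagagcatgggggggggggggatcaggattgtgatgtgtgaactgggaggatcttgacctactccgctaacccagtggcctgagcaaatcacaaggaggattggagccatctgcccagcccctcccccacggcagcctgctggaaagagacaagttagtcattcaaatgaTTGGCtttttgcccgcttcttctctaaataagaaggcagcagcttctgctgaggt
Mmd2: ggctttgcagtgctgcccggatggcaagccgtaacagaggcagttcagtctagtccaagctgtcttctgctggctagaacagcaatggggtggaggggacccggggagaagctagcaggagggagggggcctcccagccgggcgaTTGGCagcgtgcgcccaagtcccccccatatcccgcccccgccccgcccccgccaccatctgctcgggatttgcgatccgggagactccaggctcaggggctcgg

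The core of Fabp7 starts 55 bases and that of Mmd2 105 bases before the transcription start. The window of Gfap holds no TTGGC or GCCAA, although Gfap was among the genes that fell. For the family itself, the windows of Nfia and Nfic hold no core, 2 of the 4 windows of Nfix hold 1 each, and Nfib was not searched. The window of Nfia, at chr4:97581693-97581942, lies outside the GENCODE locus given above. Those of Nfic and Nfix lie inside their loci. Bases just before the starts of the loci as given above were therefore not searched.

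Genes reported to be repressed by NFI factors were not called. Of 6 such genes 5 have a row, and 0 rose and 0 fell by the Cuffdiff q, against 3.17% and 1.83% of all rows. At an unadjusted p under 0.05 there was 1 of 5, against 17.5% of all rows, so these counts are near those over all rows. Ezh2, the methyltransferase of Polycomb that NFIB is reported to repress in the forebrain, stood at 63.0 FPKM in the second and 73.3 FPKM in the first condition of the authors' deposited table, with q = 0.589. Hes1, a Notch effector reported as repressed by NFIA, stood at 10.6 FPKM in the second and 14.8 FPKM in the first condition of the authors' deposited table, with q = 0.295. Sox9, which is also a partner of NFIA, stood at 39.7 FPKM in the second and 46.8 FPKM in the first condition there, with q = 0.561 in the authors' deposited table. Cdkn1a, the cell cycle inhibitor p21 that NFIA represses in human glioma cells, had q = 0.818 in the authors' deposited table. Bbx, an HMG-box factor gene reported as repressed by NFIX, had a log2 fold of 0.28 with q = 0.518 by the authors' deposited table. The median log2 fold of the 5 genes was -0.22, against 0.0033 over all rows.

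Among 8 partners and upstream regulators of NFI genes, 1 rose, 0 fell and 7 were not called, against 3.17% of all rows called as higher and 1.83% as lower. Notch1, the receptor of the pathway that induces Nfia, was the gene that rose, with a log2 fold of 0.61. It had 34.96 FPKM in the second and 22.9 FPKM in the first condition of the authors' deposited table. By its longest transcript Notch1 is in length group 10, where 13.2% of rows were called as higher. With the median of that group taken off, its log2 fold was 0.37. Rbpj, which carries the Notch signal to DNA, had 13.4 FPKM in the second and 13.5 FPKM in the first condition of the authors' deposited table. Stat3, the mediator of gliogenic cytokine signals, stood at 68.5 FPKM in the second and 59.4 FPKM in the first condition of the authors' deposited table, with q = 0.627. Pou3f2, Pax6 and Zbtb20, transcription factors of neural precursors, and Sox8, a relative of Sox9, had q-values between 0.612 and 0.969 in that deposited table of the authors. The median log2 fold of the 8 genes was 0.04.

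Gliogenic transcription factors showed falls in a few members. Of 21 genes 20 have a row, of which 0 rose, 4 fell and 16 were not called, against 1.83% of all rows called as lower. Sox9, Sox8, Stat3, Zbtb20 and Pou3f2 are also among the partners and upstream regulators. Hes1 and Sox9 are also among the genes reported as repressed, so the lists are not separate. With the median of each gene's length group taken off, 0 of the 4 falls changed sign. Id3, whose product blocks bHLH transcription factors, fell to 55.7 FPKM in the second condition, against 91.4 FPKM in the first, in the authors' deposited table, with q = 0.0135. Hopx, a homeodomain protein gene of astrocyte-forming precursors, fell to 35.5 FPKM in the second condition, against 58.8 FPKM in the first, in the authors' deposited table, with q = 0.0105. Hes5, a Notch effector, and Nr2f2, a nuclear receptor gene at levels under 1 FPKM in each condition, were the other falls. Olig2, a factor of neural precursors, had q = 0.672 in the authors' deposited table. Set among these 20 factors, Nfix was at rank 8 of 24 by level in the second and at rank 10 in the first condition, and Nfic at rank 17 in the second and 19 in the first.

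The genes with the pattern most like each NFI gene over the 2 conditions were found by distance in log2 level. With 2 values a gene, this measure only says that levels are near. Nearest to Nfia was Kansl2, to Nfib Smo, to Nfic Chd7 and to Nfix Dtna, at log2 distances of 0.014, 0.017, 0.026 and 0.019. Second in likeness were Tmem198b for Nfib, Lrrc8b for Nfic and Pycrl for Nfix, and none of the genes named here was called in the authors' deposited table.

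Markers of neural stem cells were present, as the label gives. Of 8 markers of neural stem cells and radial glia 7 have a row, and their levels summed to 3904 FPKM in the second and 6092 FPKM in the first condition. Among these 7, Nes rose, Fabp7 fell and the median log2 fold was 0.03. Without Fabp7 the sum was 1618 FPKM in the second and 1472 FPKM in the first condition, so the lower sum in the second condition rests on Fabp7. The 7 astrocyte markers, of which 3 fell and 1 rose, are all among the 14 genes reported to depend on NFI, so their counts are no separate result. They summed to 927 FPKM in the second and 1321 FPKM in the first condition, and without Aldoc, which was not called, to 131.2 FPKM in the second and 220.2 FPKM in the first. Of 6 neuron markers 4 have a row and 0 were called, with a sum of 133.5 FPKM in the second and 130.6 FPKM in the first condition. Most of this sum was Map2, at 127.4 FPKM in the second and 122.1 FPKM in the first condition. Tubb3 had the only negative fold of the 4, a log2 fold of -0.79 with q = 0.0996 in the authors' deposited table. Of 7 oligodendrocyte lineage markers 5 have a row and 1 fell, with a sum of 1208 FPKM in the second and 1394 FPKM in the first condition. Over all rows 3.17% were called as higher and 1.83% as lower. The marker lists are short, and no marker count was tested against these shares. Of 5 microglia, 4 endothelium and 5 fibroblast markers, 0 have a row analysed here. In such bulk samples fewer cells of a type and less RNA per cell cannot be told apart, and the part of cell makeup in the results above was not tested.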

How the data were processed

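Per the labels' protocols, the 6 libraries were made from poly(A) RNA with a SOLiD kit. TopHat2 2.0.9 and Cufflinks 2.2.1 are named with Cuffdiff and the build mm10 in the submitters' processing notes. The deposited columns are, per the file headers, 2 levels, their log2 fold (second over first), a statistic that is a score, p-values, q-values and a flag for significance. The levels deposited by the authors were taken as FPKM, as Cuffdiff writes them. No library values are in the table, so no test was refitted and the authors' q over all their tests was used. The NFI genes and all lists were chosen with earlier results of these data known.

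Folds, medians, counts and ranks were computed with Python 3.11.15, numpy 2.4.6, pandas 2.3.3 and matplotlib 3.10.9. Lengths and positions came from GENCODE M21 on GRCm38, with a length for 98.7% of rows (462 through an older symbol), and promoters from RefSeq on GRCm38.p6. On simulated data the q computation was checked against statsmodels 0.14.6, and the centring by length group was tried. The other steps were not tested in this way. Named were the members, Sox4, genes of the lists and the 2 nearest genes per member. A few genes that this rule names are not reported here. Alternatives were a q of 0.01, q recomputed over all rows or rows at 1 FPKM or more, a pseudocount of 1, centring and other length groupings. The comparison uses 1 table of the series, and the test statistic was not used.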

Additional observations from a re-analysis of the deposited data

How the results depend on the processing

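The result that 0 of 4 NFI genes were called in either direction held at a q of 0.01 and with q recomputed over all rows or over rows at 1 FPKM or more. The recomputed q of Nfic was 0.121 and 0.120. A pseudocount of 1 and centring on the median of all rows changed no sign. The log2 fold of Nfix was 0.07 as deposited, and set against the median of its length group it was -0.050 with 10 groups, -0.10 with 5 groups and 0.12 with groups by median transcript length. The use of 5 groups or of median length for the members' own folds was chosen after seeing the data. With 5 groups the share called as higher around the members became 8.89%, and with median length it became 3.12% for Nfib, 1.97% for Nfic and 1.81% for Nfix, with 2.71% called as lower for Nfix. These shares move because the groups hold other rows. At a q of 0.01 the partners and upstream regulators had 0 rises in place of 1, and the gliogenic factors 2 falls in place of 4, as a stricter threshold can give. With q over rows at 1 FPKM or more the gliogenic factors had 3 falls, as Nr2f2 lies below that level. The share of all rows called was not counted at these other thresholds. The list counts there can therefore not be set against it. The 8 falls among genes reported to depend on NFI were the count under each threshold tried. All 8 had the lowest q of any row, 0.00304, so a q of 0.01 could not lower this count. No paired analysis was possible because levels are given per condition and not per passage, which also left no way to drop single replicates. No limit from depth can be stated, as the files do not give it.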
